A study of Mus musculus with 17 samples.

Results

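Tumors of TH-MYCN mice with high macrophage content were compared with tumors of low macrophage content. The tumors were chosen by their own values: for each of the 17 tumors the log2 levels of C1qa, C1qb and C1qc were averaged into a C1q score, the tumors were ranked by it, and the 5 highest were set against the 5 lowest. The remaining 7 tumors lay between these ends. The study profiled abdominal neuroblastomas of mice that carry the MYCN transgene in hemizygous form, with 1 Affymetrix array for each tumor. All 17 tumors carry the same labels (primary tumor, genotype TH-MYCN), no treatment is named, and sex, age and weight are not given per tumor, so the sets of 5 are no groups of the study. The transgene is driven by the rat tyrosine hydroxylase promoter, which is active in cells of the neural crest lineage, and the tumors were not sorted, so each array holds RNA of tumor cells together with that of stroma, vessels and blood cells. The tumors are named by the submitters' numbers, mad548 to mad565.

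Macrophages are phagocytes that settle in tissues and tumors, where they clear dying cells, digest them in lysosomes, store or export the iron and lipid that this frees, and can present antigen. C1q is the recognition subunit of the classical complement pathway. Its A, B and C chains are encoded by C1qa, C1qb and C1qc, and tissue macrophages are their main source, whereas most complement proteins come from the liver. In neuroblastoma the cells of the tumor itself belong to the sympathetic nervous lineage and make catecholamines.

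The C1q score was 11.30 in mad562, 11.18 in mad550, 10.98 in mad548, 10.90 in mad565 and 10.63 in mad554. At the low end it was 10.08 in mad551, 9.83 in mad549, 9.67 in mad563, 9.66 in mad556 and 9.44 in mad558. The tumors formed a gradient without a gap. mad554, the last of the 5 highest, differed little from mad553 at 10.58, and mad551, the first of the 5 lowest, differed little from mad560 at 10.19. The mean score was 11.00 ± 0.26 (SD, n = 5) against 9.74 ± 0.24 (SD, n = 5). These values describe the choice of tumors and carry no test, and the C1q genes are left out of all results.

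**Figure D1:**
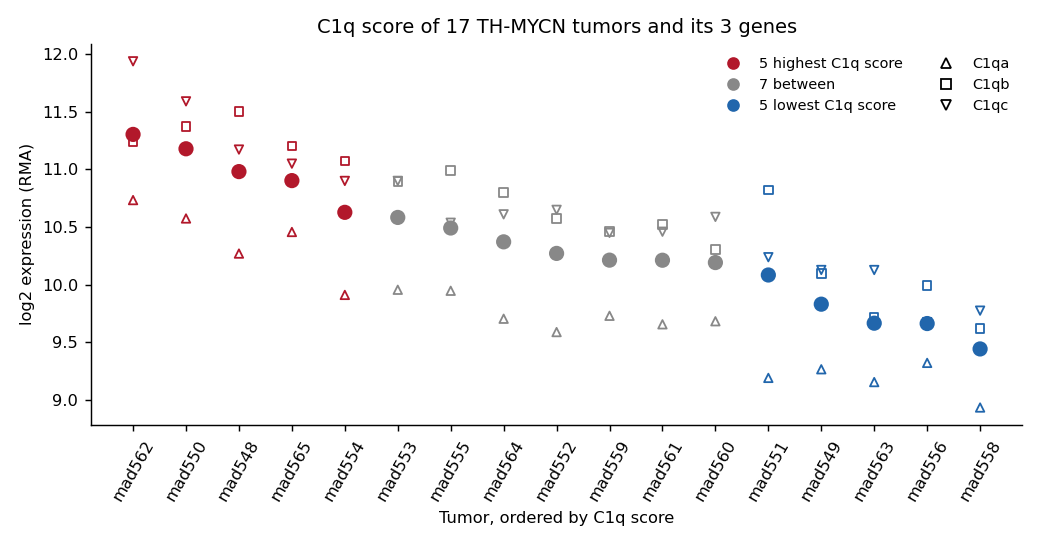
C1q score (filled circles) and the log2 levels of C1qa, C1qb and C1qc (open symbols) in the 17 tumors, ordered by score along the horizontal axis. The score fell from 11.30 to 9.44 with no break at the limits of the sets.

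Properties of the arrays were compared between the sets. The median over all single-symbol probe sets was 6.72 to 6.89 in the 5 tumors of high C1q score and 6.70 to 6.77 in the 5 of low score, a difference of means of 0.09. The difference of the 3′ and 5′ probe sets of Gapdh, a sign of RNA degradation, was larger by 0.05 in the high set, and that of Actb smaller by 0.03. The sets overlapped for both (Gapdh 2.50 to 2.77 against 2.49 to 2.77, Actb 1.40 to 1.96 against 1.50 to 1.97). From Xist and Eif2s3y, 2 of the 5 high tumors were male (mad562 and mad554) and 0 of the 5 low tumors were. Skeletal muscle genes were high in mad550 and mad549, which lie at opposite ends, and liver genes in mad562. Where the RNA of these genes came from was not tested. The part of these properties in the results was not tested. Since the tumors are bulk tissue, more macrophages and more RNA per macrophage cannot be told apart.

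Across 18190 other genes, more genes were higher than lower in the tumors of high C1q score, but few passed the test. With limma and Benjamini-Hochberg adjustment over all genes, 5 genes were higher at an adjusted p under 0.05 (0.0275% of genes tested) and 0 were lower (0%). At an unadjusted p under 0.05 there were 1602 higher and 595 lower. At an adjusted p under 0.1, a threshold added after the data had been seen, there were 164 higher (0.902%) and 26 lower (0.143%). The values of the sets did not overlap for 576 genes that were higher (3.17%) and 120 that were lower (0.66%), and of these 179 and 12 differed by at least 1 on the log2 scale. The median difference of all genes was 0.02, and 55.9% of them had a positive difference. The sets were cut from the arrays' own values, so the test describes how far apart the ends of the C1q ranking lie. It sets this distance against the spread within each set. With 1 array for each tumor, that is the spread between tumors.

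The split of higher against lower genes changed when each array was centred on its median. The ranking was repeated on the centred values, which put mad553 in place of mad554 in the high set. This applies wherever centred arrays are named. The non-overlapping genes then numbered 322 higher and 546 lower, and the median of all genes moved to -0.07. The genes at an adjusted p under 0.1 numbered 94 higher and 105 lower. The excess of higher genes in these counts was not seen with centred arrays. The parts of scaling and of the changed tumor were not tested. The number of higher genes at an adjusted p under 0.05 also depended on single tumors. It was 31 without mad562, 15 without mad548, 4 without mad551, 2 without mad554, 1 without mad556, and 0 without mad550, mad565, mad549, mad563 or mad558. With sex as a block it was 0. The number of higher genes at an adjusted p under 0.1 was no steadier. It was 0 without mad565, mad549 or mad563, 1 without mad556, 5 without mad558, 54 without mad550, 98 without mad551, 181 without mad562, 212 without mad554 and 294 without mad548. It was 1 with sex as a block, 0 without mad549, mad550 and mad553, and 0 with tumors ranked by Csf1r, Tyrobp and Fcer1g in place of C1q. Counts at this threshold are therefore given for the lists as a description of these 10 tumors.

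**Figure D2:**
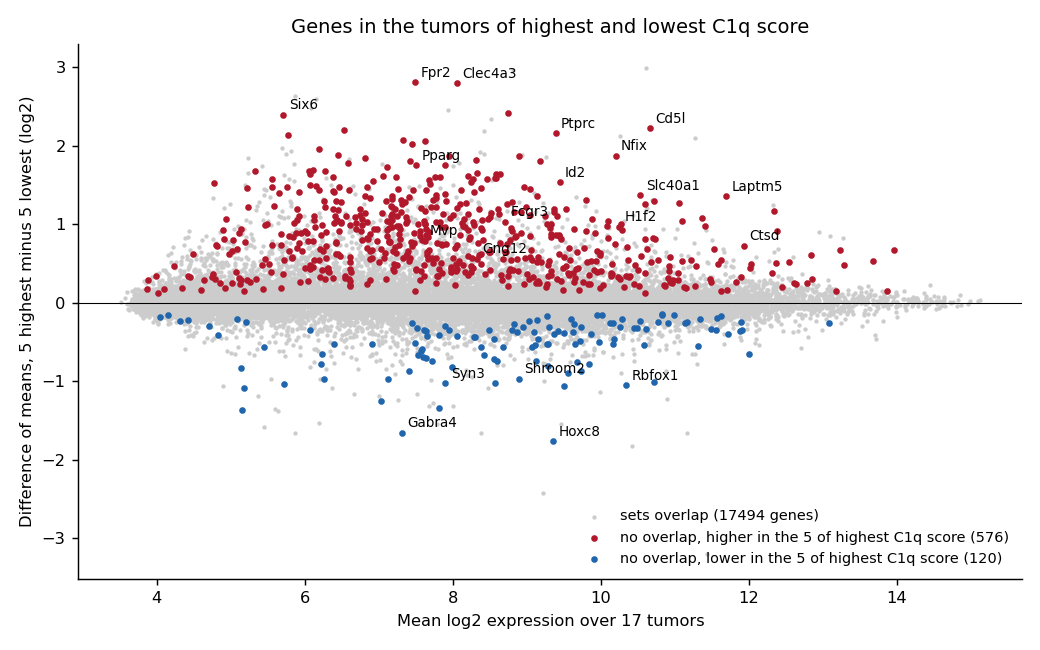
Difference of the mean log2 levels (5 tumors of highest minus 5 of lowest C1q score, vertical axis) against the mean log2 level over 17 tumors (horizontal axis), 1 point per gene. The 576 genes that were higher without overlap reach differences of 2.81 (Fpr2), and the 120 that were lower reach -1.76 (Hoxc8).

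The 5 genes that rose at an adjusted p under 0.05 were H1f2, Mvp, Nfix, Gng12 and Id2, none of which belonged to the macrophage lists used here. Values are given in the order mad562, mad550, mad548, mad565 and mad554 for the high set and mad551, mad549, mad563, mad556 and mad558 for the low set, here and for all genes that follow. H1f2, a linker histone, read 10.89, 10.84, 10.85, 10.59 and 10.69 in the high set and 9.97, 9.76, 9.66, 10.08 and 9.54 in the low set. Its mean was 1.96-fold higher (log2 difference 0.97 ± 0.12 SE, limma adjusted p = 0.0491). Mvp, the major vault protein, read 8.32, 7.91, 7.99, 8.29 and 7.90 against 7.25, 7.25, 7.31, 7.23 and 7.40. The low tumors lay within a narrow band for Mvp, and the difference was 0.79 ± 0.10 (SE, limma adjusted p = 0.0491). Nfix, a transcription factor of the nuclear factor I family, read 10.43, 10.55, 11.28, 11.45 and 11.69 against 9.32, 9.30, 8.89, 8.85 and 9.66. It had the largest of the 5 differences (1.88 ± 0.25 SE, 3.67-fold, limma adjusted p = 0.0491), and its highest values came from mad554 and mad565 rather than from the tumors of highest C1q score. Gng12, a gamma subunit of heterotrimeric G proteins, read 8.57, 8.66, 8.53, 8.63 and 8.78 against 8.06, 8.15, 8.01, 8.08 and 8.07, a difference of 0.56 ± 0.08 (SE, limma adjusted p = 0.0491). Id2, an inhibitor of helix-loop-helix transcription factors, read 9.99, 9.97, 10.20, 10.54 and 9.91 against 9.30, 8.66, 8.56, 8.37 and 8.01. It was 2.91-fold higher (log2 difference 1.54 ± 0.21 SE, limma adjusted p = 0.0491).

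The probe sets of these genes disagreed in part. The 2 brighter probe sets of H1f2 differed by 0.97 and 0.77 and the dimmest by 0.00. The 3 brighter ones of Nfix differed by 1.88, 1.75 and 1.60, and its 2 dim ones by 0.18 and 0.45. For Id2 the differences were 1.54, 1.19 and 0.34 from the brightest to the dimmest. Probe sets of Mvp (0.79 and 0.82) and Gng12 (0.56 and 0.32) all differed in the same direction. In the 7 tumors between the ends, H1f2 ran from 9.31 to 10.91 and Gng12 from 7.70 to 8.85. In both genes these tumors reached below the lowest tumor of the low set and above the highest of the high set.

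Most markers of macrophages that had no part in the ranking had a higher mean in the same tumors, although the sets overlapped for many. Of 24 measured genes of macrophage identity, 23 had a positive difference (beside 55.9% of all genes), 13 did not overlap between the sets (11 with centred arrays, beside 3.17% of all genes) and 9 had an adjusted p under 0.1 (beside 0.902%), but 0 passed at 0.05. Their median difference was 0.99, beside 0.02 for all genes, and their mean level was 8.43 to 9.46 in the high set against 7.77 to 8.09 in the low set. Without mad562 the median was 0.80, and with centred arrays 0.95. Many members are also expressed by monocytes, neutrophils or microglia.

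Laptm5, a lysosomal membrane protein of blood-derived cells, read 13.49, 12.64, 12.06, 12.08 and 12.13 in the high set and 11.67, 11.15, 10.80, 11.24 and 10.71 in the low set. Its difference was 1.36 ± 0.28 (SE, limma adjusted p = 0.0837), and 1 of its 5 probe sets differed by -0.11. Cd68, a glycoprotein of macrophage lysosomes, read 10.81, 10.28, 9.94, 9.72 and 9.93 against 9.48, 9.27, 9.18, 9.02 and 9.02. Adgre1, which encodes F4/80, read 9.77, 9.10, 8.48, 8.97 and 7.98 against 7.38, 7.87, 7.18, 7.97 and 7.58, so that mad554 lay next to the highest low tumors. The 2 largest differences of the list were those of Fcer1g (1.57 ± 0.40 SE), the signaling chain shared by Fc receptors, and Laptm5. Csf2rb, a receptor chain shared by GM-CSF and related cytokines, differed by 1.35 ± 0.23 (SE, limma adjusted p = 0.0645).

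Csf1r, the receptor on which most macrophages depend, was less closely tied to the C1q score. It read 12.78, 12.01, 10.87, 11.56 and 10.54 in the high set and 11.04, 10.64, 10.40, 10.98 and 10.58 in the low set. mad554 and mad548 lay inside the range of the low tumors, and the difference of 0.82 ± 0.36 (SE) did not pass (limma adjusted p = 0.377). Siglec1, the sialic acid receptor of resident macrophages, differed by 0.12. Itgam, which encodes the CD11b integrin chain, read 3.97 to 4.40 in all 17 tumors and differed by -0.02. Such values lie near the bottom of the scale, whose lowest value is 3.28, and carry no information on differences between tumors.

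**Figure D3:**
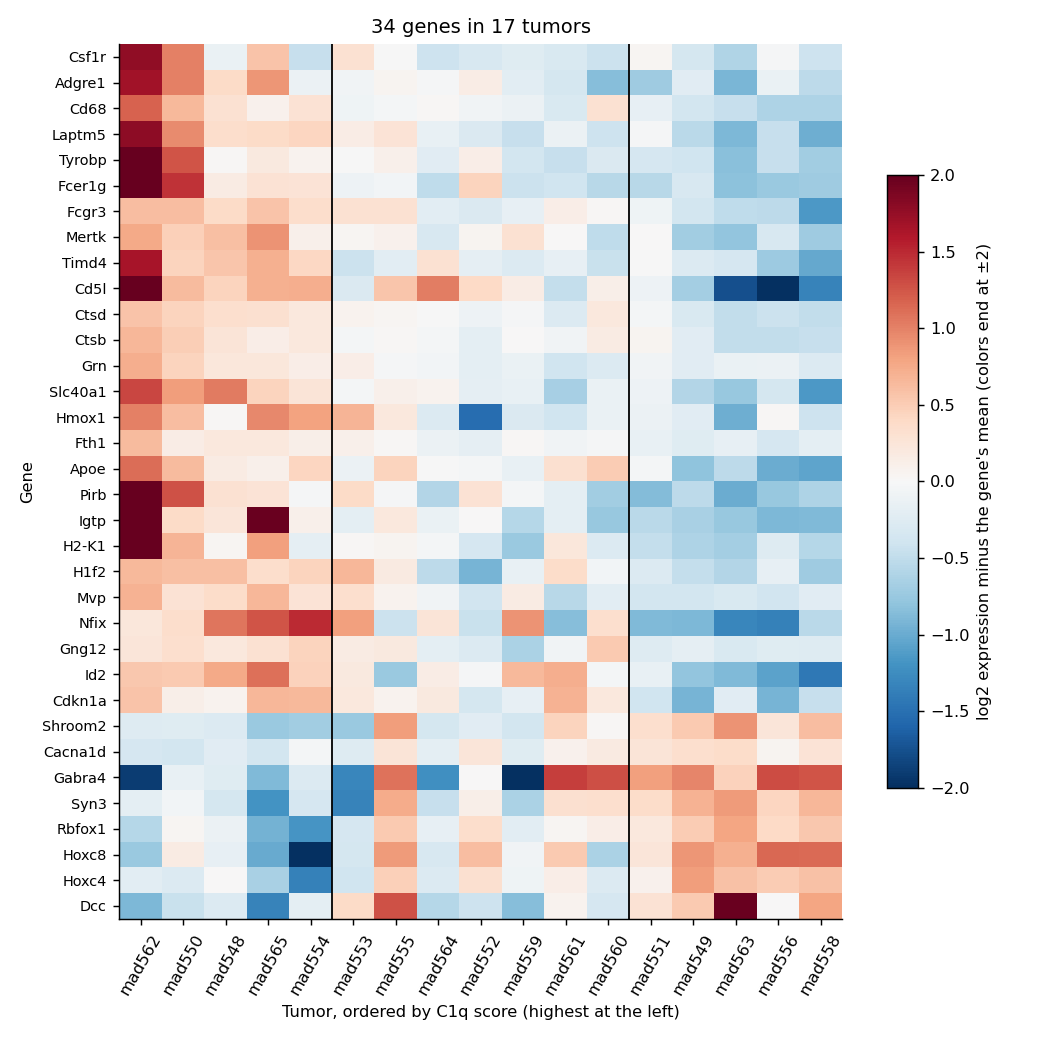
Log2 level of 34 genes minus each gene's mean over 17 tumors (color), with tumors ordered from the highest to the lowest C1q score and lines at the limits of the sets. Laptm5, Tyrobp and Fcer1g are highest in mad562 and mad550, Mertk in mad565, and Nfix in mad554 and mad565.

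Markers of tissue-resident macrophages differed unevenly. Of 16 genes, 4 did not overlap (2 with centred arrays, beside 3.17% of all genes). Of the 16, 3 had an adjusted p under 0.1 (beside 0.902%), and the median difference was 0.53. The same shares over all genes stand beside the counts of the lists that follow. Some genes, Mertk, Itgb2 and Fcer1g among them, belong to several lists and are counted in each, so the lists are not independent. Cd5l, a secreted scavenger receptor protein of tissue macrophages, read 12.95, 11.29, 11.11, 11.36 and 11.39 against 10.56, 9.98, 8.90, 8.22 and 9.33. It was 4.67-fold higher (log2 difference 2.22 ± 0.45 SE, limma adjusted p = 0.0832), and the tumors between the ends ran from 10.19 to 11.68. Timd4, a receptor for the phosphatidylserine of dying cells, differed by 1.23 ± 0.25 (SE) without overlap. The 2 lowest differences were those of Cbr2 (-0.35) and Marco (0.02). Markers of monocytes had a median difference of 0.76 over 10 genes, of which 2 did not overlap. S100a4, a calcium-binding protein of monocytes and of motile cells in general, read 8.67, 7.87, 7.69, 8.34 and 8.42 against 7.26, 6.64, 7.31, 6.85 and 6.88. Ccr2, the chemokine receptor of inflammatory monocytes, read 6.06, 6.60, 6.64, 6.67 and 6.58 against 6.69, 6.22, 6.62, 6.55 and 6.27. The sets overlapped for Ccr2, and its difference was 0.04 ± 0.14 (SE). Chil3 had the largest difference among the monocyte genes (1.74 ± 0.70 SE), with overlap.

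Genes of Fc receptors and of signaling through immunoreceptor activation motifs differed by a median of 1.01. Of 15 genes, 7 did not overlap (6 with centred arrays) and 1 had an adjusted p under 0.1, and without mad562 the median was 0.72. Fcgr3, a low affinity receptor for IgG, read 9.32, 9.31, 9.09, 9.28 and 9.06 against 8.61, 8.34, 8.20, 8.17 and 7.56. It differed by 1.04 ± 0.17 (SE, limma adjusted p = 0.0645) and was even within the high set. Fcgr4, another activating IgG receptor, read 12.31, 10.52, 7.05, 7.86 and 8.81 against 7.21, 6.75, 6.61, 7.10 and 6.59. Its difference was the largest of the list (2.46 ± 0.80 SE), but mad562 and mad550 set it, mad548 lay within the low range, and it did not pass (limma adjusted p = 0.213). The lowest differences were those of Trem2 (0.11), a lipid receptor that signals through Tyrobp, and Fcgr1 (0.26).

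Spi1, which encodes the transcription factor PU.1 of the myeloid lineage, differed by 1.15 without overlap (7.04 to 9.06 against 6.32 to 6.75, limma adjusted p = 0.154). Promoters were therefore searched for GAGGAAGT, a form of the site that PU.1 binds, and its reverse complement ACTTCCTC, on both strands of RefSeq promoters of 250 bases before to 50 bases after each start (GRCm38.p6). Of 472 non-overlapping higher genes with a promoter in the table, 37 held a match (7.84%). Of 14450 tested genes with a promoter, 500 did (3.46%), as did 5 of 102 non-overlapping lower genes (4.90%) and 997 of the 27025 genes of the whole table (3.69%). Of the macrophage identity list 1 of 15 did (6.67%), too few genes to judge a share. A match is a description and not a site shown to be bound. The 4 promoters below belong to listed genes that did not overlap between the sets. They are shown as examples of the match, which starts at position -120 from the gene start for Pirb, -151 for Ctsc, 18 for S100a4 and -20 for Inpp5d, with the match in capitals and up to 60 bases on each side, 5′ to 3′ on the strand of the gene. They lie at chr7:3720435-3720562 (Pirb, minus strand), chr7:88277874-88278001 (Ctsc, plus strand), chr3:90603727-90603819 (S100a4, plus strand) and chr1:87620232-87620359 (Inpp5d, plus strand).
Pirb: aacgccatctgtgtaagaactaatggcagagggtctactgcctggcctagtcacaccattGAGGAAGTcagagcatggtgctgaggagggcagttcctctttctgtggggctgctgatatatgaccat
Ctsc: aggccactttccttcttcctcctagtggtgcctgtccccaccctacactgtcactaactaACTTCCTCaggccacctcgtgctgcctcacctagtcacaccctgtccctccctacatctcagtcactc
S100a4: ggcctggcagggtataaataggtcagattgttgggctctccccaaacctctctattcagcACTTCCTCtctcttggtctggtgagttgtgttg
Inpp5d: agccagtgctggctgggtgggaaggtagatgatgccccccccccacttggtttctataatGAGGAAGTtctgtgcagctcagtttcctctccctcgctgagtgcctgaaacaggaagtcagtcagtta

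The genes behind these promoters differed to unlike degrees. Pirb, an inhibitory receptor for MHC class I, read 9.10, 7.55, 6.58, 6.54 and 6.24 against 5.41, 5.75, 5.28, 5.52 and 5.66. Inpp5d, the phosphatase SHIP1 of blood cells, read 9.35, 8.75, 7.47, 7.67 and 7.80 against 7.24, 7.21, 7.06, 7.28 and 7.20. In both genes mad562 and mad550 stood well above the other high tumors. Ctsc, the lysosomal protease cathepsin C, read 12.43, 12.47, 11.16, 11.12 and 11.72 against 10.87, 10.83, 9.98, 10.57 and 10.29. The differences were 1.68 ± 0.45 (SE) for Pirb, 1.01 ± 0.31 for Inpp5d and 1.27 ± 0.29 for Ctsc.

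Receptors for phagocytosis differed less than Fc receptors. Of 21 genes of uptake and opsonin handling, 5 did not overlap (3 with centred arrays) and 3 had an adjusted p under 0.1. The median difference was 0.59. Mertk, a receptor kinase through which macrophages take up dying cells, read 8.91, 8.62, 8.75, 9.05 and 8.25 against 8.15, 7.44, 7.36, 7.82 and 7.43. It was 2.10-fold higher (log2 difference 1.07 ± 0.18 SE, limma adjusted p = 0.0645), with the low tumor mad551 close to the high tumor mad554. Itgb2, the beta chain of the leukocyte integrins, had the largest difference (1.87 ± 0.50 SE). Havcr1, another receptor for phosphatidylserine, had the lowest (-0.03).

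Genes of the lysosome all differed in the same direction. All 19 measured lysosomal proteases and enzymes had a positive difference (beside 55.9% of all genes), 10 did not overlap (7 with centred arrays) and 5 had an adjusted p under 0.1, with a median of 0.54. Ctsd, the aspartic protease cathepsin D, read 12.50, 12.37, 12.27, 12.24 and 12.13 against 11.89, 11.62, 11.44, 11.50 and 11.43. Within the high set its order was that of the C1q score, and the difference was small (0.73 ± 0.11 SE, 1.66-fold, limma adjusted p = 0.0645). Ctsb, cathepsin B, read 13.90, 13.73, 13.50, 13.37 and 13.44 against 13.28, 13.01, 12.75, 12.74 and 12.78. The 2 largest differences were those of the proteases Ctsh (1.45 ± 0.39 SE) and Lgmn (1.34 ± 0.38 SE), and the 2 lowest those of Glb1 (0.05) and Npc2 (0.11).

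Genes that handle iron and cell debris were higher in the high set in 10 of 10 cases. Of these, 4 did not overlap (3 with centred arrays) and 4 had an adjusted p under 0.1, with a median difference of 0.73. Slc40a1, the iron exporter ferroportin, read 11.88, 11.38, 11.57, 10.98 and 10.79 against 10.44, 9.94, 9.78, 10.19 and 9.38. It was 2.59-fold higher (log2 difference 1.37 ± 0.23 SE, limma adjusted p = 0.0645), and its other probe set differed by 1.18. Hmox1, the heme oxygenase that frees iron from heme, read 9.28, 8.89, 8.30, 9.24 and 9.08 against 8.15, 8.05, 7.30, 8.30 and 7.87, so that mad548 and mad556 nearly met. Fth1, the heavy chain of the iron store ferritin, differed by 0.48 without overlap. Of 12 genes of lipid-associated macrophages, the median difference was 0.77 and 1 did not overlap (0 with centred arrays). This was Apoe, the lipid carrier apolipoprotein E, which read 13.47, 12.98, 12.50, 12.45 and 12.78 against 12.31, 11.55, 11.82, 11.35 and 11.29 (log2 difference 1.17 ± 0.23 SE, limma adjusted p = 0.0727). Lpl, lipoprotein lipase, differed by 1.25 ± 0.38 (SE) with overlap, and Fabp5, a fatty acid binding protein, by 0.03.

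Genes of the activation states named after cell culture differed from gene to gene. Of 14 genes of alternative activation, 3 did not overlap (1 with centred arrays) and the median difference was 0.18. The median was 0.35 without mad550 and 0.06 with centred arrays. Mrc1, the mannose receptor, read 9.81, 8.94, 9.16, 9.83 and 8.70 against 8.13, 8.28, 7.90, 8.54 and 7.62. Arg1, arginase 1, read 8.52, 6.81, 7.46, 9.16 and 8.94 against 7.43, 8.67, 8.27, 7.36 and 8.88. The sets overlapped throughout for Arg1, with a difference of 0.06 ± 0.46 (SE). Of 16 genes of inflammatory activation, 3 did not overlap and the median difference was 0.52 (0.28 without mad562 and mad565). Socs3, a feedback inhibitor of cytokine signaling, read 9.93, 9.20, 8.44, 9.53 and 8.78 against 8.14, 7.69, 7.30, 7.49 and 7.18. It was 3.06-fold higher (log2 difference 1.61 ± 0.27 SE, limma adjusted p = 0.0645). Nos2, inducible nitric oxide synthase, differed by -0.13 ± 0.13 (SE) and Il23a, a cytokine subunit, by -0.84.

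Growth factors and chemokines that recruit or sustain macrophages had a median difference of 0.32 over 14 genes (0.19 without mad565), and 0 of them lay apart without overlap. Csf1, the ligand of the receptor encoded by Csf1r, read 6.81, 7.18, 6.94, 7.28 and 6.88 against 6.60, 7.11, 6.50, 6.71 and 6.65. Its difference was 0.30 ± 0.13 (SE, limma adjusted p = 0.390). The largest differences were those of Ccl9 (1.50 ± 0.43 SE) and Ccl6 (1.40 ± 0.32 SE), chemokines that myeloid cells make themselves, and the lowest those of Mif (-0.13) and Vegfa (-0.10). Complement genes other than C1q had a median difference of 0.31 over 22 genes, 0.17 without mad562 and 0.07 with sex as a block. Of these, 3 did not overlap (2 with centred arrays), namely Itgb2, which is also a chain of the complement receptors, Serping1 and C6 (0.31), a component of the membrane attack complex. Serping1, the inhibitor of the proteases that C1q activates, read 9.74 to 10.65 against 8.20 to 9.16 (log2 difference 1.19 ± 0.21 SE, limma adjusted p = 0.0645).

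**Figure D4:**
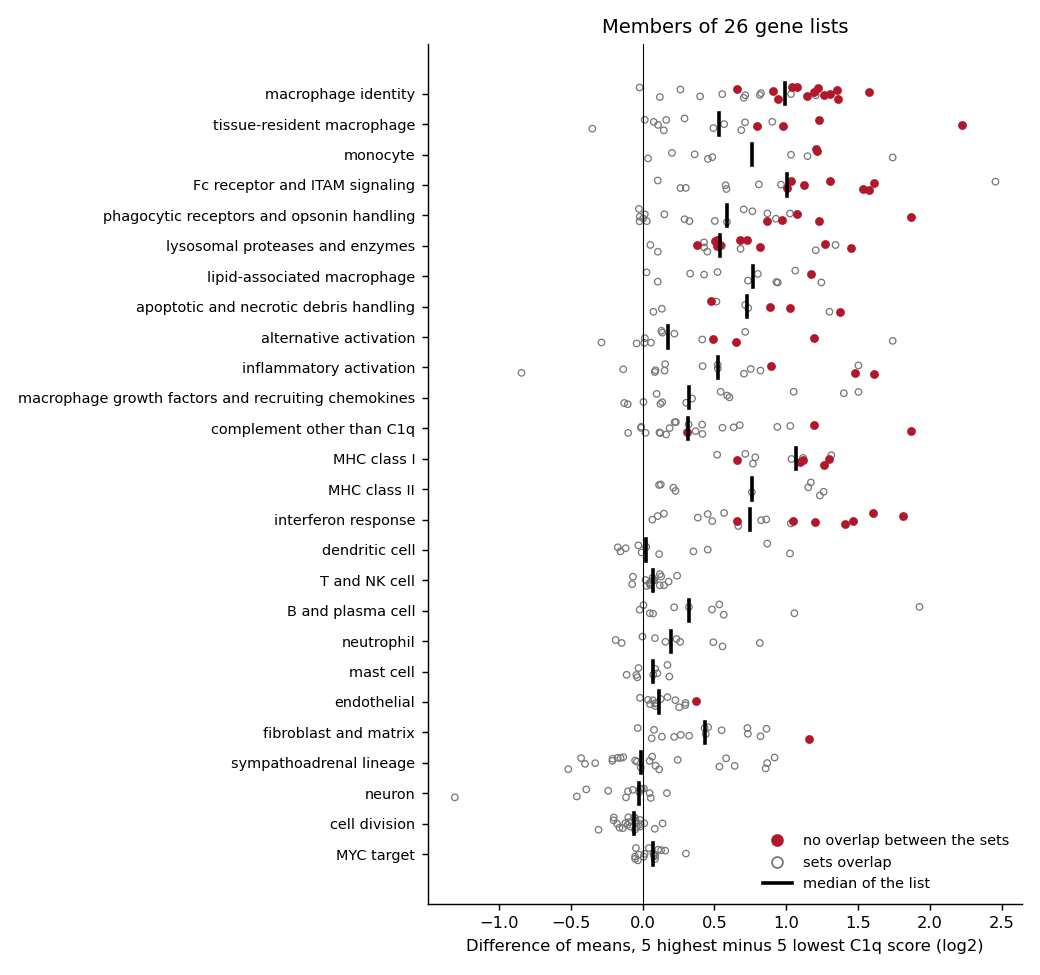
Difference between the 5 tumors of highest and the 5 of lowest C1q score (log2, horizontal axis) for every measured member of 26 gene lists (1 point per gene, filled where the sets do not overlap, bar at the median). Medians run from 1.07 (MHC class I) to -0.06 (cell division), and all 19 lysosomal genes lie above 0.

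Genes of antigen presentation and of the interferon response were highest in 2 tumors of the high set, mad562 and mad565 (left out together as a check added after the data had been seen). MHC class I genes had a median difference of 1.07 over 12 genes, with 5 that did not overlap (3 with centred arrays). The median was 0.62 without mad562 and 0.47 without both. H2-K1, a class I heavy chain, read 12.93, 11.27, 10.63, 11.41 and 10.41 against 10.11, 9.98, 9.90, 10.34 and 10.01. Interferon response genes had a median difference of 0.75 over 18 genes, and 0.36 without both tumors. Of these genes, 7 did not overlap (5 with centred arrays). Igtp, an interferon-induced GTPase, read 10.98, 8.69, 8.55, 10.28 and 8.41 against 7.77, 7.66, 7.56, 7.41 and 7.44. Even the other 3 high tumors lay above the low set for Igtp. MHC class II genes had a median difference of 0.76 over 9 genes, 0.14 without both tumors, and 0 lay apart without overlap. H2-Aa, a class II chain, read 12.81, 10.75, 8.76, 11.43 and 8.48 against 7.71, 9.71, 9.01, 9.94 and 9.69, so that mad548 and mad554 lay within the range of the low tumors. Ligands and receptors that restrain or stimulate macrophages or T cells had a median difference of 0.39 over 14 genes (0.23 without mad562). Of these, 5 did not overlap (2 with centred arrays), Pirb and Cd86 among them.

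Lymphoid and granulocytic markers had smaller median differences than the genes of macrophage identity. T and NK cell genes had a median difference of 0.07 over 17 genes (-0.01 with centred arrays, where that of all genes was -0.07). Their mean level was 5.40 to 5.61 in the high set and 5.34 to 5.50 in the low set. Cd3e, a chain of the T cell receptor complex, read 6.85, 6.93, 6.91, 6.94 and 7.05 against 6.74, 7.06, 6.89, 6.87 and 6.74. Mast cell genes had a median of 0.07 over 9 genes, dendritic cell genes 0.02 over 11 (-0.04 with centred arrays), neutrophil genes 0.20 over 10 (0.09 without mad550), and B and plasma cell genes 0.32 over 11 (0.14 without mad565). In none of these lists did a gene lie apart without overlap. The largest single difference among them was that of Jchain, the joining chain of antibodies, at 1.93 ± 1.0 (SE) with levels of 4.74 to 10.36 in the high set against 4.53 to 5.32 in the low set. The levels of these lists are low, and small numbers of lymphocytes may not be detectable on whole-tumor arrays.

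Among stromal lists, pericyte and smooth muscle genes had a median difference of 0.49 over 10 genes and fibroblast and matrix genes 0.44 over 16, each with 1 gene that did not overlap. The first median was 0.27 without mad550, and the second was 0.22 with sex as a block, 0.27 without mad551 and 0.19 without mad563. The genes without overlap were Notch3 (0.51), a receptor of mural cells, and Thy1 (1.16), a surface protein of fibroblasts that neurons also carry. Endothelial genes had a median of 0.11 over 14 genes (0.02 without mad562), with Egfl7 (0.37), a secreted protein of vessels, the only member without overlap. Beside 3.17% of all genes, 1 such gene in a list is not read as a result about the list. With centred arrays 0 genes of these 3 lists lay apart without overlap. Schwann cell genes had a median of 0.16 over 9 genes (-0.05 with centred arrays, where that of all genes was -0.07). Adipose genes had a median of 0.41 over 8 genes and of 0.04 without mad562, and Pparg, the regulator of fat cells that some macrophages also use, read 7.85 to 9.99 against 6.02 to 7.35. With centred arrays 0 adipose genes lay apart without overlap. The adrenal cortex, kidney and erythroid lists had medians of 0.07 (-0.04 with centred arrays), -0.05 and -0.16.

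Genes of liver and skeletal muscle were high in single tumors. The mean level of 7 liver genes was 9.66 in mad562, against at most 5.61 in the other 9 tumors of both sets, and the median difference of 0.93 was 0.19 without mad562. Alb, serum albumin, reached 12.52 in mad562, and the high tumor of lowest level had 4.79. The mean level of 10 skeletal muscle genes was 10.97 in mad550 and 10.13 in mad549, so that it was high in 1 tumor of each set. The median difference of the muscle list was 0.08 and had no stable value. It was -0.93 without mad550, 0.96 without mad549, 0.32 without mad562 and 0.76 with sex as a block. With centred arrays it was 1.40, but there mad553 (muscle level 12.50) stood in the high set in place of mad554 (6.14). Muscle and liver hold macrophages of their own. Without mad549, mad550 and mad553, the macrophage identity median was 0.94, and without mad562 it was 0.80. The tumors with high muscle genes and the tumor with high liver genes were not left out together.

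**Figure D5:**
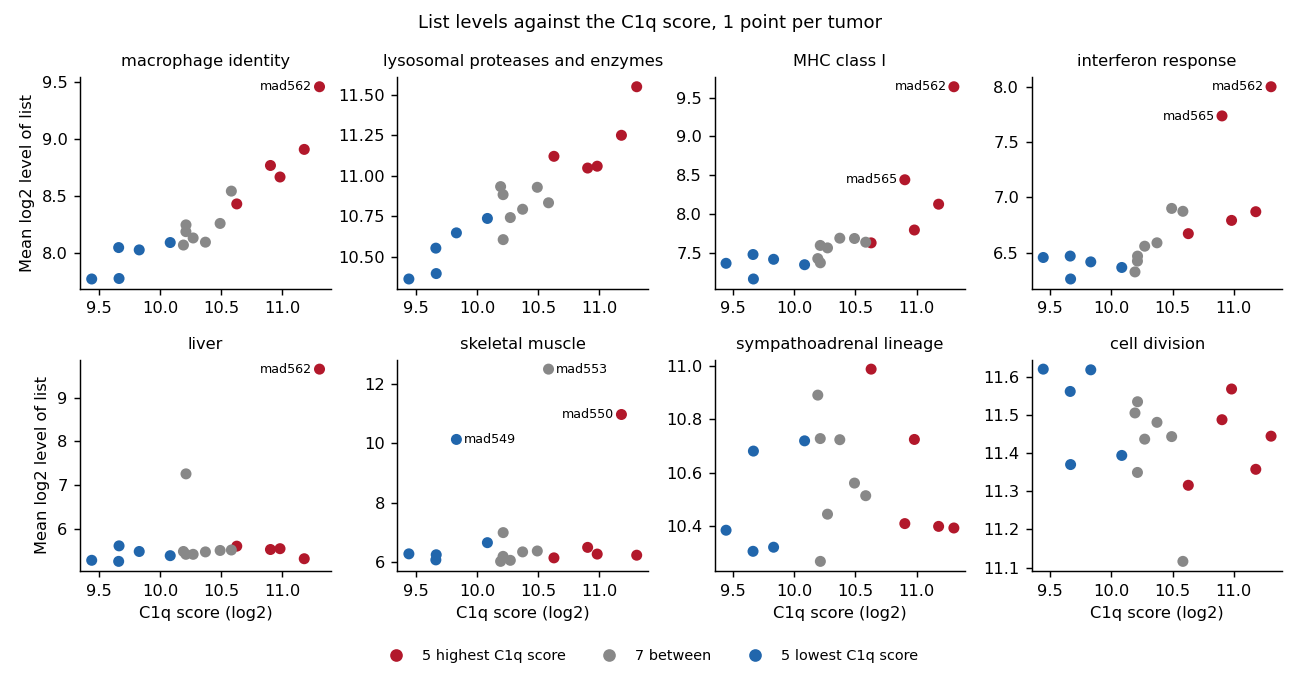
Mean log2 level of 8 gene lists (vertical axes) against the C1q score (horizontal axes), 1 point per tumor. Macrophage identity and lysosomal genes climb along the score, and MHC class I and interferon genes are high in mad562 and mad565. Liver (mad562) and muscle (mad553, mad550 and mad549) stand out in single tumors. The next highest liver level is that of mad559 (7.26), between the ends.

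Genes of the tumor cells themselves differed in both directions. Over 23 sympathoadrenal genes the median difference was -0.01, with 11 positive and 12 negative, and their mean level was 10.39 to 10.99 in the high set and 10.31 to 10.72 in the low set. Th, tyrosine hydroxylase, read 13.09, 12.83, 13.14, 13.51 and 14.33 against 13.16, 11.54, 13.51, 11.73 and 12.67. The difference of Th was 0.86 ± 0.40 (SE, limma adjusted p = 0.426), with overlap. Ret, a receptor kinase of sympathetic precursors, had the largest difference (0.92 ± 0.37 SE) and Stmn2, a neuronal microtubule regulator, the lowest (-0.52 ± 0.28 SE). Defining markers of the sympathetic lineage were present in all 10 tumors, with Chga, Chgb, Hand2 and Isl1 between 11.94 and 14.75. MYC target genes had a median of 0.08 over 17 genes (-0.06 with centred arrays) and hypoxia genes 0.17 over 15 (-0.02 with centred arrays, 0.04 without mad554). Medians as near 0 as these also moved with single tumors in several other lists, and their size is not read here. With centred arrays the median of all genes was itself -0.07.

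Cell division genes had small differences. Of 23 genes, 20 had a negative difference (beside 55.9% of all genes with a positive one), and 0 lay apart without overlap. The list median was -0.06 (-0.18 with centred arrays, where that of all genes was -0.07). Mki67, which encodes the proliferation marker Ki67, read 13.72, 13.67, 13.77, 13.63 and 13.67 against 13.71, 13.80, 13.70, 13.86 and 13.92, a difference of -0.10 ± 0.08 (SE, limma adjusted p = 0.689). The lowest difference was that of Tyms, thymidylate synthase (-0.31 ± 0.22 SE). Of 11 targets of p53, 2 did not overlap and the median was 0.26 (0.16 with sex as a block). Cdkn1a, the cell cycle inhibitor p21, read 9.85, 9.40, 9.34, 9.95 and 9.93 against 8.88, 8.34, 9.05, 8.35 and 8.82 (log2 difference 1.0 ± 0.18 SE, limma adjusted p = 0.0645). All 13 immediate early genes had a positive difference, with a median of 0.63 (0.33 without mad562 and mad565) and 1 without overlap (0 with centred arrays).

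Among genes that were lower in the tumors of high C1q score, none passed at an adjusted p under 0.05, and the 5 of smallest p (Shroom2, Cacna1d, C130030K03Rik, Gabra4 and Syn3) each had an adjusted p of 0.0645 by limma. Shroom2, which shapes the actin cytoskeleton, read 8.63, 8.65, 8.61, 8.15 and 8.19 against 9.22, 9.41, 9.79, 9.13 and 9.51 (log2 difference -0.97 ± 0.15 SE). Gabra4, a subunit of the GABA-A receptor, read 5.41, 7.16, 7.07, 6.43 and 7.03 against 8.13, 8.29, 7.77, 8.61 and 8.56 (-1.65 ± 0.31 SE). Syn3, a synapsin of nerve terminals, read 7.70, 7.85, 7.55, 6.71 and 7.57 against 8.27, 8.59, 8.76, 8.32 and 8.57 (-1.03 ± 0.19 SE). Its other probe sets differed by -0.36 and 0.09. Cacna1d, a pore subunit of L-type calcium channels, differed by -0.53 ± 0.10 (SE), with a dimmer probe set at 0.00, and C130030K03Rik by -1.04 ± 0.19 (SE).

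Other lower genes without overlap were picked out after their values were seen. Hoxc8, a homeobox gene that sets position along the body axis, read 8.62, 9.51, 9.18, 8.35 and 6.4 against 9.59, 10.24, 10.06, 10.51 and 10.49. Hoxc4, of the same gene cluster, read 10.51, 10.45, 10.73, 10.07 and 9.37 against 10.80, 11.55, 11.30, 11.23 and 11.31. mad554 was the lowest tumor for both. Rbfox1, a neuronal splicing factor, differed by -1.05 ± 0.22 (SE) and Dcc, a netrin receptor, by -1.34 ± 0.34 (SE). The list of 15 general neuronal genes had a median of -0.02, with 11 negative differences. The list median was -0.18 with centred arrays (beside -0.07 for all genes) and -0.13 with sex as a block. The lowest member of this list, Rbfox3, the nuclear antigen of mature neurons, differed by -1.31 ± 0.45 (SE) with overlap.

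Over all 17 tumors, the genes most like the C1q score by Pearson's r were Ctsd (0.949), Slc40a1 (0.937), Fcgr3 (0.929), Kcnj10 (0.925), Laptm5 (0.919), Ctsb (0.917), Ms4a6d (0.917), Clec4n (0.911), Anxa4 (0.905) and Parvg (0.900). The correlations are a description over 17 tumors that include those used for the sets, and the points share the scale of each array. None of the 5 genes that passed the test was among them, with r of 0.77 for H1f2, 0.82 for Mvp, 0.69 for Nfix, 0.65 for Gng12 and 0.79 for Id2.

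The 7 tumors between the ends had no part in the comparison, although their place was set by the same score. Of the 576 genes that were higher without overlap, 425 (73.8%) had a positive slope on the C1q score within these 7 tumors, beside 50.9% of all genes. Of the 120 lower genes, 71 (59.2%) had a negative slope, beside 49.1% of all genes. Among genes at or above the median level, these shares were 70.1% beside 41.3% for higher genes and 63.4% beside 58.7% for lower genes. Of the 5 genes that passed the test, 4 had a positive slope, and Id2 did not. Genes are not independent and the C1q scores of these 7 tumors span little, so these shares carry no test.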

How the data were processed

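Per the labels, total RNA of 17 tumors was hybridized to 1 Affymetrix mouse array each, and the authors used RMA and Partek 6.4. The paper's methods name MAS5 instead, but the deposited values are log2 values from 3.28 to 15.59 and were used as deposited. Of 45101 probe sets, 64 controls were left out, 34945 carried 1 symbol in the platform annotation, 932 several and 9160 were unnamed here. Each of 18193 genes was represented by its probe set of highest mean. The number of arrays limits the precision.

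The 5 tumors of highest C1q score were compared with the 5 of lowest by lmFit and eBayes of limma 3.58.1 (R 4.3.3), with Benjamini-Hochberg adjustment over 18190 genes and a threshold of 0.05. No other covariate entered. Genes without overlap, list medians and slopes carry no test. Tables and figures used Python 3.11.15, pandas 2.3.3, NumPy 2.4.6 and Matplotlib 3.10.9, and the test was tried on simulated data. Of 541 genes in 38 lists, 494 were measured by a single-symbol probe set. Members and lists were chosen with earlier results of these data known. Planned for naming were the genes that passed, the 5 lower genes of smallest p, and the 2 highest and 2 lowest of a list. Fixed cell type markers and the 10 genes most like the score were planned too. The text gives only part of these, and others were named after their values were seen. A list's level in a tumor is the mean of its genes. Alternatives changed the choice of probe sets, the scaling, the number of tumors, the ranking genes and the model, and left out single tumors. Where the probe sets or the scaling changed, the C1q ranking was repeated, so the tumors in the sets could change too.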

Additional observations from a re-analysis of the deposited data

Results flagged for a closer look

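Of 76 list levels (38 lists in each set of 5 tumors), 5 had a tumor far from the other 4 by Dixon's criterion, the ratio of the gap to the nearest tumor to the range of the set. Chance passes about 1 in 20 such sets. The monocyte level was 7.69 in mad565, with the nearest high tumor at 7.06 (ratio 0.767). The skeletal muscle level was 10.97 in mad550, nearest 6.50 (0.927), in the high set and 10.13 in mad549, nearest 6.66 (0.857), in the low set. The liver level was 9.66 in mad562, nearest 5.60 (0.934). The neutrophil level was 5.45 in mad549, nearest 5.30 (0.736), a gap that is small on the log2 scale.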

How the results depend on the processing

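No paired analysis was possible because all tumors belong to 1 label group and each has 1 array. The calls at an adjusted p under 0.05 (5 higher, 0 lower) were not stable. Higher genes numbered 0 with the mean of all probe sets, with tumors ranked by Csf1r, Tyrobp and Fcer1g, with sex as a block and without mad549, mad550 and mad553, 1 without probe sets of the types x, s and a, and 3 with 6 against 6 tumors. They numbered 31 without mad562 (2 lower), 47 among genes at or above the median level (4 lower), 308 with all 17 tumors in 3 sets (25 lower) and 630 with the score as a covariate over 17 tumors (53 lower). Centred arrays gave 3 lower. Added after seeing the data, leaving out mad562 and mad565 gave 2 higher, and an adjusted p under 0.1 gave 164 higher and 26 lower. Leaving out each tumor in turn gave 0 to 31 higher and 0 to 2 lower.

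Genes without overlap (3.17% higher, 0.66% lower) made up 1.02% lower among genes at or above the median level, 1.17% lower without probe sets of the types x, s and a, 1.77% higher and 3.0% lower with centred arrays, 3.02% lower with 4 against 4 tumors, and 1.64% higher and 0.308% lower with 6 against 6. They made up 1.25% and 1.73% with the other ranking, 5.72% and 1.25% without mad549, mad550 and mad553, and 5.33% and 1.21% without mad562 and mad565. Leaving out each tumor gave 3.53% to 4.42% higher and 0.792% to 1.68% lower. Fewer tumors leave fewer values that could overlap. Without probe sets of the types x, s and a, the repeated ranking also changed the tumors in the sets. H1f2 was then at -0.052, Nfix at 0.12 and Id2 at 0.26. On the main sets the same probe set of H1f2 differed by 0.00.

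Of 909 list medians recomputed, 886 moved by at most 1 SD of the list level and 23 by more. Among the 21 lists with a median of at least 0.3 in size, 4 medians changed sign, all of the adipose list (-0.02 with the other ranking, -0.11 without mad548, -0.02 without mad551 and -0.01 without mad563). Values near the bottom of the scale limit what dim genes such as Itgam can show, and the cause of these dependences was not tested.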
